A study of Mus musculus with 9 samples.

Results

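Deletion of the whole miR-17~92 cluster was compared with the intact cluster in mouse embryos by small RNA sequencing, using 2 of the 9 libraries of an allelic series. One library came from an embryo sample labelled as the full knockout of miR-17~92 and one from wild type, and all 984 mature miRNA entries of the table were used. The other genotypes served as a measure of spread, with 1 library each: ΔmiR-17, ΔmiR-18, ΔmiR-19, ΔmiR-92, ΔmiR-17,18 and ΔmiR-17,18,92, the last of which keeps miR-19 alone. They are called the 6 partial deletions here. All 8 libraries were labelled female and were taken at embryonic day 9.5, from what remained of the embryo once the heart and tail bud had been removed. Neither the strain, the zygosity of the deletion nor the number of embryos behind a library was stated in the labels. 1 more library, of undetermined reads, was left out because the labels give it no genotype.

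miR-17~92, also known as oncomiR-1, is a polycistron that yields several miRNAs from 1 primary transcript, and its members act in cell proliferation and survival and in lung, heart, B-cell and skeletal development. A miRNA finds its targets mainly through its seed, the bases just after its 5′ end, so miRNAs with the same seed share many predicted targets. Both paralog clusters, that of miR-106a on the X chromosome and that of miR-106b within the gene Mcm7, encode miRNAs with the seeds of miR-17~92 and are not named as deleted in any of these genotypes.

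The deleted miRNAs and their paralogs are shown by seed, because the comparison turns on which molecules with a given seed were left. Sequences are RefSeq's, on build GRCm38.p6, where 773 of the 984 entries had one. Each runs 5′ to 3′, with bases 2 to 8, the seed, in capitals. The first set has the seed AAAGUGC and holds miR-17-5p and miR-20a-5p of the deleted cluster and 4 paralogs.
miR-17-5p: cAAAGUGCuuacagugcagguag
miR-20a-5p: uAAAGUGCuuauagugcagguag
miR-106a-5p: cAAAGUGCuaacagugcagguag
miR-20b-5p: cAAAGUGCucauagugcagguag
miR-93-5p: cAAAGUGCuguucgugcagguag
miR-106b-5p: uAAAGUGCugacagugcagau

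The miR-18 and miR-19 seeds, AAGGUGC and GUGCAAA, are each carried by a pair of measured miRNAs, and the miR-92 seed AUUGCAC by a larger set that also includes miR-25, miR-363, miR-367, miR-92b and miR-32.
miR-18a-5p: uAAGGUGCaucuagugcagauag
miR-18b-5p: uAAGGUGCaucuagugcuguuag
miR-19a-3p: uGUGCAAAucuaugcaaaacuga
miR-19b-3p: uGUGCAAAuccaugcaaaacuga
miR-92a-3p: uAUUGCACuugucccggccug
miR-25-3p: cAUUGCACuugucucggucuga

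Some of these differ by very few bases. Counted from the 5′ end, miR-106a-5p differs from miR-17-5p by the substitution U10A alone, and miR-20b-5p from miR-20a-5p by U1C and U10C. miR-18b-5p differs from miR-18a-5p by A18U and A20U, and miR-19b-3p from miR-19a-3p by U11C. Reads of such pairs are uncertain where a base is misread, since the counting rule for multiply mapped reads was not given in the sources used here. Hairpins of the cluster, 6 in number, span chr14:115043671-115044506 on the plus strand of GRCm38.p6.

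The full-deletion library held 9030190 reads assigned to miRNAs and the wild-type library 7070621, within the range of the 8 genotype libraries (6563143 to 18480034). The unit of all levels below is nRPM (normalised RPM): each deposited value was multiplied by 0.116 in every library, so that 1 read was worth 0.105 nRPM in the full deletion and 0.157 nRPM in wild type. Reads were found for 840 miRNA entries in the full deletion and 836 in wild type. Where a library is called the highest or lowest of the 8, the order was read on nRPM only. It was not computed under other scalings. With 1 library a side, a ratio compares 2 libraries and not 2 genotypes. Its 95% interval covers counting error only, and reads counted without molecular identifiers are not independent molecules.

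The cluster was nearly gone from the full deletion. Its arms took 1.41% of reads there (95% interval 1.405 to 1.42, Clopper-Pearson) and 29.03% in wild type (29.001 to 29.07). The 10 arms that come from 1 hairpin only, and so check the label, summed to 521 reads in the full deletion and 460665 in wild type, which is 0.0758% of the wild-type level after scaling (0.0694 to 0.0826). miR-17-5p, which targets cell-cycle and survival genes, had 96 reads in the full deletion and 110648 in wild type. miR-20a-5p, its partner in the miR-17 family, had 200 reads in the full deletion and 198383 in wild type. Both were thus at less than 0.1% of wild type (0.0581% and 0.0676%).

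miR-18a-5p had 165 reads in the full deletion and 64479 in wild type (0.171%), the highest share among those of the 10 arms with any read. miR-19a-3p, of the miR-19 seed family, had 47 reads in the full deletion and 61428 in wild type. miR-92a-1-5p had 12 reads in the full deletion and 9208 in wild type, and miR-17-3p had 1 read in the full deletion and 12475 in wild type. The remaining arms of the 10 had no read at all in the full deletion. They were miR-20a-3p, with 1453 reads in wild type, miR-18a-3p with 1622, miR-19b-1-5p with 609 and miR-19a-5p with 360. For these, 3 reads in the full deletion would equal between 0.124% and 0.558% of wild type.

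**Figure D1:**
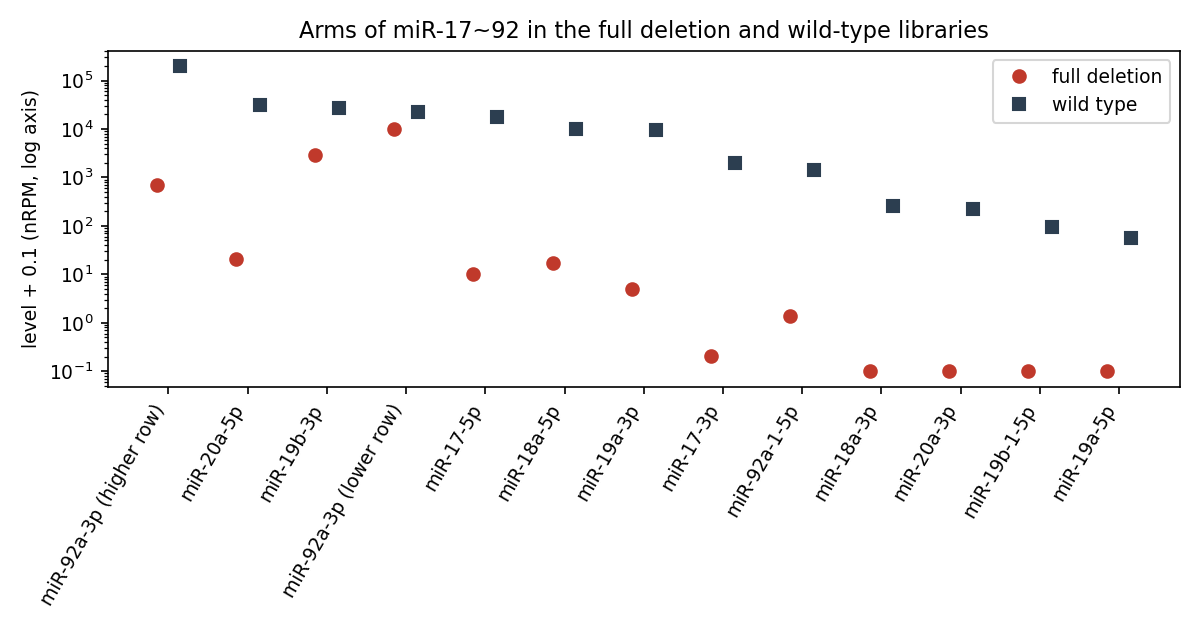
Level of each arm of miR-17~92 in nRPM, plus 0.1, on a log axis, with the full deletion left of wild type; points at 0.1 had no read. Arms of 1 source hairpin lie far below their wild-type level in the full deletion, while miR-19b-3p (2852 nRPM) and the lower entry of miR-92a-3p (9800.4 nRPM) lie nearer to theirs.

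2 guide arms of the cluster kept a clear signal, and both have a second source hairpin outside the deleted region. miR-19b-3p lay at 2852 nRPM in the full deletion (27172 reads) and at 26896 nRPM in wild type (171706 reads), so that 10.6% was left. Its mature sequence is encoded by both Mir19b-1 in the deleted cluster and Mir19b-2 in the X-linked paralog cluster, and the reads do not tell them apart. In ΔmiR-19, which also lacks the miR-19 hairpins of the cluster, it was at 1541 nRPM.

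miR-92a-3p was listed in 2 entries of 1 accession, and no source used here says which stands for which hairpin. The higher entry lay at 683 nRPM in the full deletion and 199557 nRPM in wild type (0.342%). The lower entry was at 9800.4 nRPM in the full deletion and 22954 nRPM in wild type (42.7%). In ΔmiR-92 and ΔmiR-17,18,92 the higher entry was at 872 and 546 nRPM, and at 60319 to 139090 nRPM in the other partial deletions. The lower entry was at 14309 and 8491 nRPM in those 2 libraries, and at 10971 to 19244 nRPM in the others. The higher entry was thus low in every library that lacks the cluster's miR-92, whereas the lower entry differed far less. Together the 2 entries gave 10483 nRPM in the full deletion and 222511 nRPM in wild type, or 4.71%. miR-92a-3p comes from a hairpin in each of miR-17~92 and the miR-106a cluster, and it is known for restraining blood vessel growth.

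Summed by seed, the full deletion differed from wild type to very different degrees. In the full-deletion library molecules with the miR-17 seed were at least as abundant as in the wild-type library, whereas those with the miR-19 seed were scarce. The miR-17 seed summed to 133660 nRPM in the full deletion and 107173 nRPM in wild type, or 124.7% of wild type, and to a median of 99121 nRPM in the 6 partial deletions (68565 to 138998). The miR-18 seed summed to 11447 nRPM in the full deletion and 16970 nRPM in wild type (67.5%), against a median of 8047 nRPM in the partial deletions (2090.3 to 17547). Both totals of the full deletion thus lay within the range of the partial deletions, some of which lack the same miRNAs. For the miR-17 seed in nRPM, each partial deletion that lacks miR-17 lay below wild type, unlike the full deletion. Their totals were 68565 nRPM in ΔmiR-17, 104216 nRPM in ΔmiR-17,18 and 71836 nRPM in ΔmiR-17,18,92. ΔmiR-17,18 was only slightly below wild type. A difference that small may change sign under other scalings, which was not computed for this pair. The partial deletions that keep miR-17 lay between 94027 and 138998 nRPM.

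The miR-19 seed summed to 2857 nRPM in the full deletion and 36518 nRPM in wild type (7.82%), with a median of 74958 nRPM in the partial deletions (1556 to 238634). Both measured miR-19 guides belong to the cluster, and miR-19a-3p made up almost none of what was left. The miR-92 seed summed to 45177 nRPM in the full deletion and 276188 nRPM in wild type (16.4%). Its median was 124817 nRPM in the partial deletions (55551 to 199882), so the full deletion was the lowest of the 8 libraries. Scaled to plain read totals, the miR-17 seed was at 146% of wild type, miR-18 at 78.8%, miR-19 at 9.14% and miR-92 at 19.1%. Scaled to reads outside the cluster these were 105%, 56.7%, 6.58% and 13.8%.

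**Figure D2:**
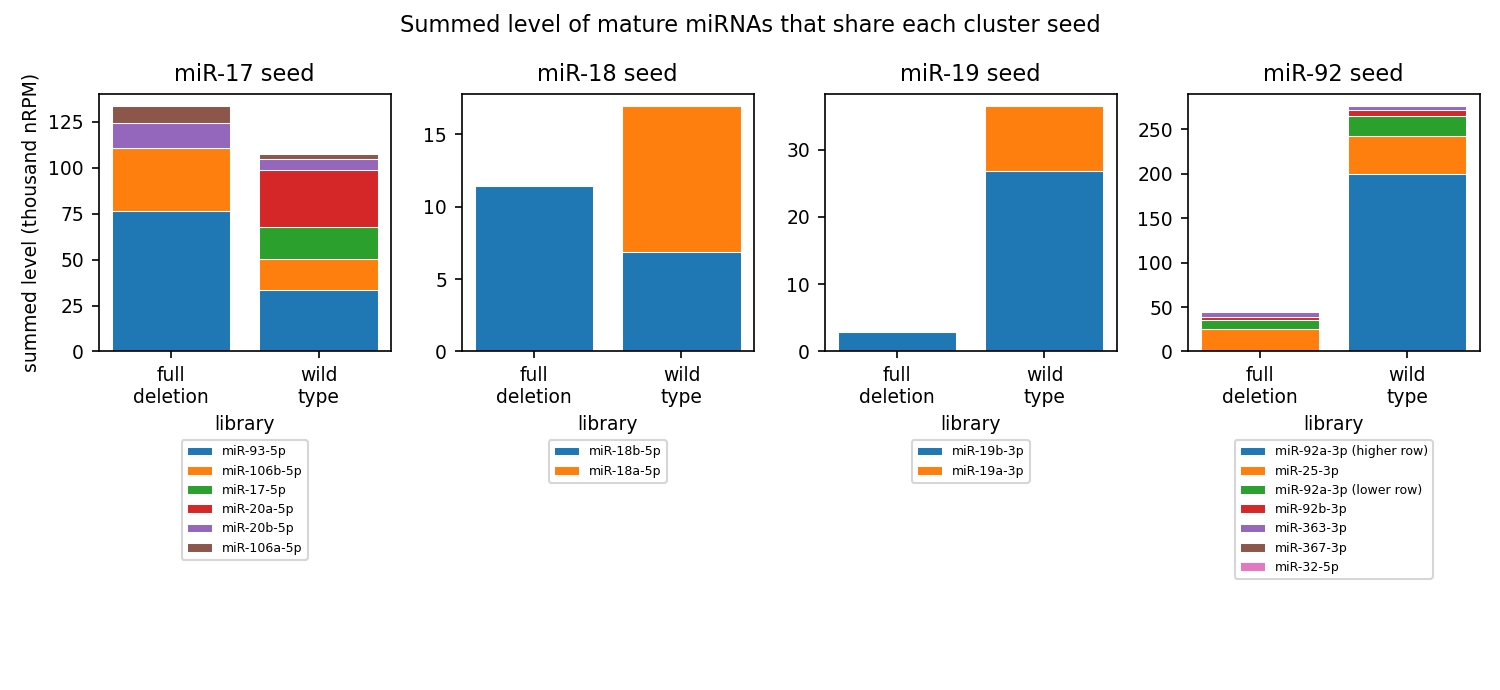
Summed nRPM of the miRNAs that carry each seed of the cluster, with the full deletion left of wild type, split by member. For the miR-17 seed the bar of the full deletion (133660 nRPM) is somewhat taller than that of wild type (107173 nRPM) and is made almost wholly of paralogs, whereas for the miR-19 and miR-92 seeds it is far shorter.

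The make-up of the miR-17 seed differed more than its total. miR-17-5p and miR-20a-5p made up 0.0232% of it in the full deletion and 45.2% in wild type. miR-93-5p, of the miR-106b cluster, made up 57.0% in the full deletion and 31.1% in wild type. miR-106b-5p, from the same transcript and known for targeting p21, made up 25.7% in the full deletion and 15.7% in wild type. miR-20b-5p made up 10.2% in the full deletion and 5.58% in wild type, and miR-106a-5p 7.05% in the full deletion and 2.44% in wild type. The order of these 4 paralogs by share was thus the same in both libraries.

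The 4 paralogs with the miR-17 seed summed to 133629 nRPM in the full deletion and 58767 nRPM in wild type, which was 2.27-fold higher in the full deletion. The fold was 2.66 with plain read totals and 1.91 with totals of reads outside the cluster. In the partial deletions their sum had a median of 69264 nRPM and lay between 58667 and 103849 nRPM, so the full deletion was the highest of the 8 libraries and wild type was next to the lowest. In bulk tissue, more cells of a type and more RNA per cell cannot be told apart.

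miR-93-5p was the most abundant miRNA of the full-deletion library, at 8.04% of reads (8.02 to 8.06), and took 3.01% in wild type (2.999 to 3.02). It lay at 76216 nRPM in the full deletion and 33350 nRPM in wild type, 2.29-fold higher (2.27 to 2.30). In the partial deletions it lay between 18906 and 40608 nRPM with a median of 31482, so no other library came near the full deletion. miR-20b-5p was at 13690 nRPM in the full deletion and 5979 nRPM in wild type, 2.29-fold higher (2.26 to 2.32), and lay between 4619 and 8434 nRPM in the partial deletions (median 7507). It too was above all 7 other libraries.

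miR-106a-5p, the paralog closest to miR-17-5p in sequence, had the largest fold of the 4. It lay at 9421 nRPM in the full deletion and 2612 nRPM in wild type, 3.61-fold higher (3.55 to 3.67). It lay between 3289 and 7577 nRPM in the partial deletions (median 4900), so wild type was the lowest of the 8 libraries and the full deletion the highest. miR-106b-5p was at 34302 nRPM in the full deletion and 16825 nRPM in wild type, 2.04-fold higher. Here the partial deletions ranged from 16759 to 48012 nRPM and took in both. The limma adjusted p for these 4 lay between 0.723 and 0.777, so none of them passed the test described further on.

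Guides of the paralog clusters with other seeds were mixed. miR-18b-5p lay at 11430 nRPM in the full deletion and 6870 nRPM in wild type, 1.66-fold higher. It ranged from 1096 to 9483 nRPM in the partial deletions (median 3601), so the full deletion was the highest of the 8 libraries, as for miR-93-5p, miR-20b-5p and miR-106a-5p, though over a wide spread. miR-25-3p, which has the miR-92 seed and is made from the same transcript as miR-93 and miR-106b, was at 24806 nRPM in the full deletion and 42563 nRPM in wild type (0.583-fold). The partial deletions held 30156 to 50521 nRPM of it (median 35477), so the full deletion was the lowest of the 8 libraries. miR-363-3p, of the X-linked cluster, was nearly level, at 5196 nRPM in the full deletion and 4709 nRPM in wild type. Its limma test gave no call, as for every other miRNA outside the cluster.

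Less abundant or partner arms of the paralog hairpins, the strands that are usually degraded, were also mixed. miR-93-3p lay at 103.1 nRPM in the full deletion and 185 nRPM in wild type, and miR-106b-3p at 1785 nRPM in the full deletion and 2252 nRPM in wild type, each lower where its guide was higher. miR-106a-3p was at 12.6 nRPM in the full deletion and 12.4 nRPM in wild type. miR-20b-3p lay at 65.5 nRPM in the full deletion and 40.6 nRPM in wild type, 1.61-fold higher, and at 57.0 to 76.4 nRPM in the partial deletions. miR-18b-3p was at 72.7 nRPM in the full deletion and 53.3 nRPM in wild type, 1.37-fold higher, and at 44.7 to 104.2 nRPM in the partial deletions. These 2 arms lay above wild type, as their guides did, but within the range of the partial deletions.

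miR-363-5p lay at 1944 nRPM in the full deletion and 966 nRPM in wild type, 2.01-fold higher, and was the highest of the 8 libraries in the full deletion (330 to 1525 in the partial deletions), unlike miR-363-3p. miR-92a-2-5p was at 164 nRPM in the full deletion and 180.9 nRPM in wild type, and miR-19b-2-5p at 8.29 nRPM in the full deletion and 7.68 nRPM in wild type. Both come from the X-linked copies of deleted hairpins, and for both the full deletion was close to wild type. miR-25 had the opposite arrangement, since miR-25-5p lay at 16.1 nRPM in the full deletion (153 reads) and 6.42 nRPM in wild type (41 reads). With the partial deletions between 4.43 and 7.01 nRPM, miR-25-5p was highest in the full deletion while miR-25-3p was lowest there.

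Members of the miR-92 seed that lie outside all 3 clusters were mixed. miR-92b-3p was at 3804 nRPM in the full deletion and 5967 nRPM in wild type, and miR-32-5p at 170 nRPM in the full deletion and 152 nRPM in wild type. miR-367-3p, made with the miR-302 family in pluripotent cells, lay at 718 nRPM in the full deletion and 285 nRPM in wild type. Its partial deletions spanned 162 to 2211 nRPM, a wider spread than that difference.

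No miRNA outside the cluster passed the main test, which ran across all miRNAs at once. limma was fitted on log2(nRPM + 1) over 537 of the 971 entries outside the cluster, those with a mean of at least 10 nRPM, and the full deletion and wild type were assumed to vary like the 6 partial deletions, which differ in genotype themselves. Between the full deletion and wild type it called 0 (0%) at an adjusted p under 0.05, with 30 at an unadjusted p under 0.05 and a lowest adjusted p of 0.188. Against the 6 partial deletions it called 0 (0%) for the full deletion and 0 (0%) for wild type, with 28 and 31 at an unadjusted p under 0.05. edgeR's quasi-likelihood test on the reads called 0 in each of these comparisons, with 32, 29 and 32 at an unadjusted p under 0.05. On simulated data for this comparison with 20 changed miRNAs among 537, limma recovered 83.3% of changes of log2 3, 36.7% of log2 2 and 7.5% of log2 1. With 200 changed miRNAs these were 97.9%, 69.4% and 15%. The simulation gave every miRNA the same dispersion (0.0953) and gave wild type the mean of the partial deletions. Real miRNAs differ in spread, so these shares do not measure the recovery in the data.

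DESeq2's Wald test, an alternative, called 5 between the full deletion and wild type, 1 higher and 4 lower. The higher one was miR-302c-3p (log2 2.80 ± 0.57 SE, DESeq2 adjusted p = 0.000546). miR-3099-3p had 0.735 nRPM in the full deletion, from 7 reads, and 19.6 nRPM in wild type. The partial deletions held 7.33 to 21.6 nRPM of it, so the full deletion lay alone (DESeq2 adjusted p = 0.00112). The others were miR-297a-3p, miR-297b-3p and miR-297c-3p, which had identical values and so count as 1 measurement: 5.98 nRPM in the full deletion and 33.2 nRPM in wild type (DESeq2 adjusted p = 0.00919). They belong to a family with many near-identical copies.

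By size alone, among the 319 miRNAs outside the cluster averaging 100 nRPM or more, 27 (8.46%) were at least 2-fold higher in the full deletion and 26 (8.15%) at least 2-fold lower. The 53 miRNAs (16.6%) 2-fold apart between the full deletion and wild type compare with 31 to 74 for the 15 pairs of partial deletions (median 41), and 11 of those pairs had fewer than 53. The median log2 ratio of these miRNAs was 0.10. It was 0.32 with plain read totals, where 43 were higher and 14 lower, and -0.15 with totals of reads outside the cluster, where 14 were higher and 43 lower. The split between higher and lower therefore depends on the scaling, and a log2 ratio within about 0.25 of 0 has no fixed sign.

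**Figure D3:**
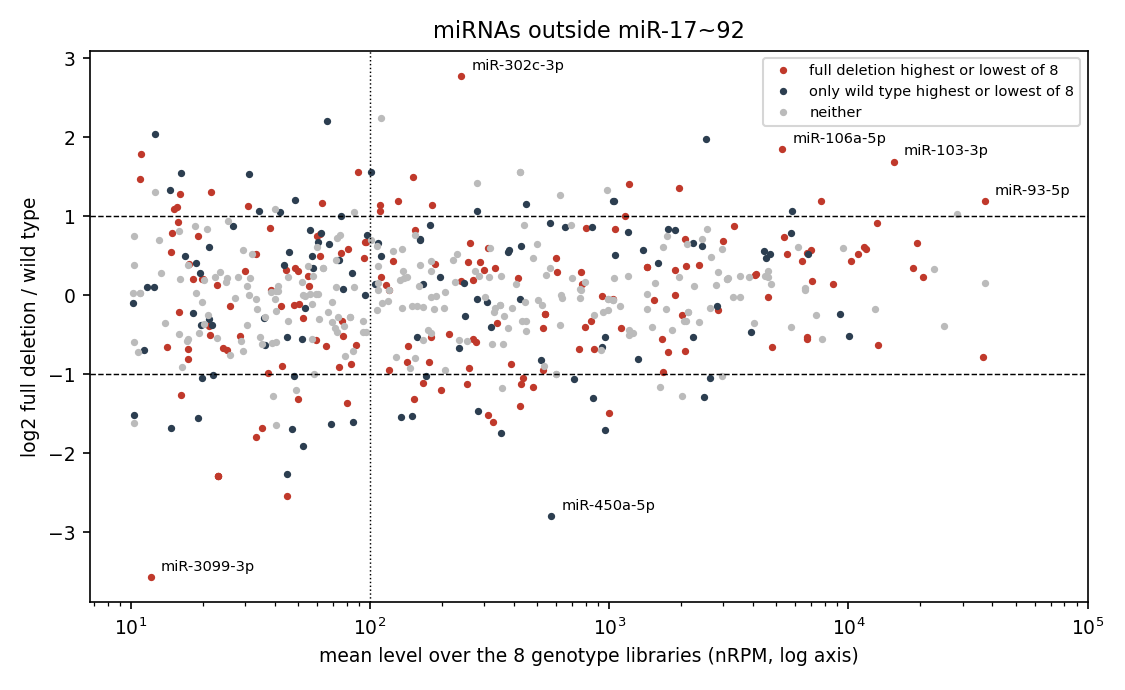
log2 ratio of the full deletion over wild type for each miRNA outside the cluster with a mean of at least 10 nRPM, against its average level over the 8 libraries in nRPM on a log axis; dashed lines mark 2-fold, the dotted line a level of 100 nRPM, and colours show whether the full deletion, or wild type alone, was highest or lowest of the 8. Of the 319 miRNAs averaging 100 nRPM or more, 27 lie above the upper line and 26 below the lower one, and the paralogs miR-93-5p, miR-20b-5p and miR-106a-5p are among the most abundant of the higher ones.

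For part of the miRNAs at least 2-fold apart, wild type and not the full deletion lay outside the range of the other 7 libraries. The full deletion was the highest of the 8 libraries for 60 of the 319 (18.8%) and the lowest for 46 (14.4%). Wild type was the highest or lowest for 75 (23.5%), less often than the full deletion. Some library is highest and some lowest for every miRNA, so such shares alone do not set a library apart. The shares expected from 8 interchangeable libraries were not computed. Of the 27 miRNAs that were 2-fold higher in the full deletion, it alone lay outside the range of the other 7 libraries for 8, wild type alone for 7, both for 5 and neither for 7. For the 26 that were lower these counts were 8, 11, 3 and 4. Set against the mean of the 6 partial deletions, a comparison added after the data were seen, 10 miRNAs of the 319 were at least 2-fold higher in the full deletion and 13 lower. In wild type 17 were at least 2-fold above that mean and 7 below, so such distances were not particular to the full deletion. In the full deletion 5 were 2-fold higher than both wild type and that mean, and 7 were lower than both.

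Those 5 were miR-93-5p, miR-20b-5p, miR-103-3p, miR-325-5p and miR-493-3p. miR-103-3p, a miRNA of metabolic tissues known for its part in insulin sensitivity, was at 30406 nRPM in the full deletion and 9411 nRPM in wild type, 3.23-fold higher (3.20 to 3.26). It lay between 8424 and 29277 nRPM in the partial deletions, with a median of 11467, so a library with part of the cluster, ΔmiR-17,18, came close to the full deletion. Its near-copy miR-107-3p lay at 795 nRPM in the full deletion and 436 nRPM in wild type, with 531 to 1019 nRPM in the partial deletions, so wild type alone lay outside their range. miR-325-5p was at 324 nRPM in the full deletion and 146 nRPM in wild type (88.4 to 242 in the partial deletions).

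The 7 lower ones were miR-382-3p, miR-598-3p, miR-23a-3p, miR-493-5p, miR-142-3p, miR-30b-3p and miR-190-5p. miR-382-3p, of the imprinted Dlk1-Dio3 region, lay at 340 nRPM in the full deletion and 952 nRPM in wild type (700 to 1824 in the partial deletions). miR-598-3p was at 188 nRPM in the full deletion and 411.3 nRPM in wild type (363.2 to 592). For both, wild type lay within the range of the partial deletions and the full deletion below it. miR-30b-3p lay at 49.2 nRPM in the full deletion and 107.1 nRPM in wild type, and at 148 to 242 nRPM in the partial deletions, so both end genotypes lay below every partial deletion. miR-190-5p was at 66.1 nRPM in the full deletion and 166 nRPM in wild type (85.4 to 244 in the partial deletions).

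miR-23a-3p, made with miR-27a and miR-24, was at 190 nRPM in the full deletion and 502.7 nRPM in wild type (271 to 688 in the partial deletions). miR-142-3p, a marker of blood cells, lay at 114 nRPM in the full deletion and 328 nRPM in wild type, against a wide span of 134.2 to 849 nRPM in the partial deletions. miR-142-5p, its other arm, was at 321.5 nRPM in the full deletion and 292.3 nRPM in wild type, so the blood marker was not lower on both arms. Markers of white blood cells (miR-142, miR-223 and miR-150), 3 of 6 of which were above wild type, summed to 443 nRPM in the full deletion and 627 nRPM in wild type (389 to 1507 in the partial deletions). In both libraries nearly all of this sum came from the arms of miR-142. miR-223-3p and miR-150-5p had no read in the full deletion, and miR-150-3p had none in wild type. The part of blood cells in the value of miR-142-3p was not tested.

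**Figure D4:**
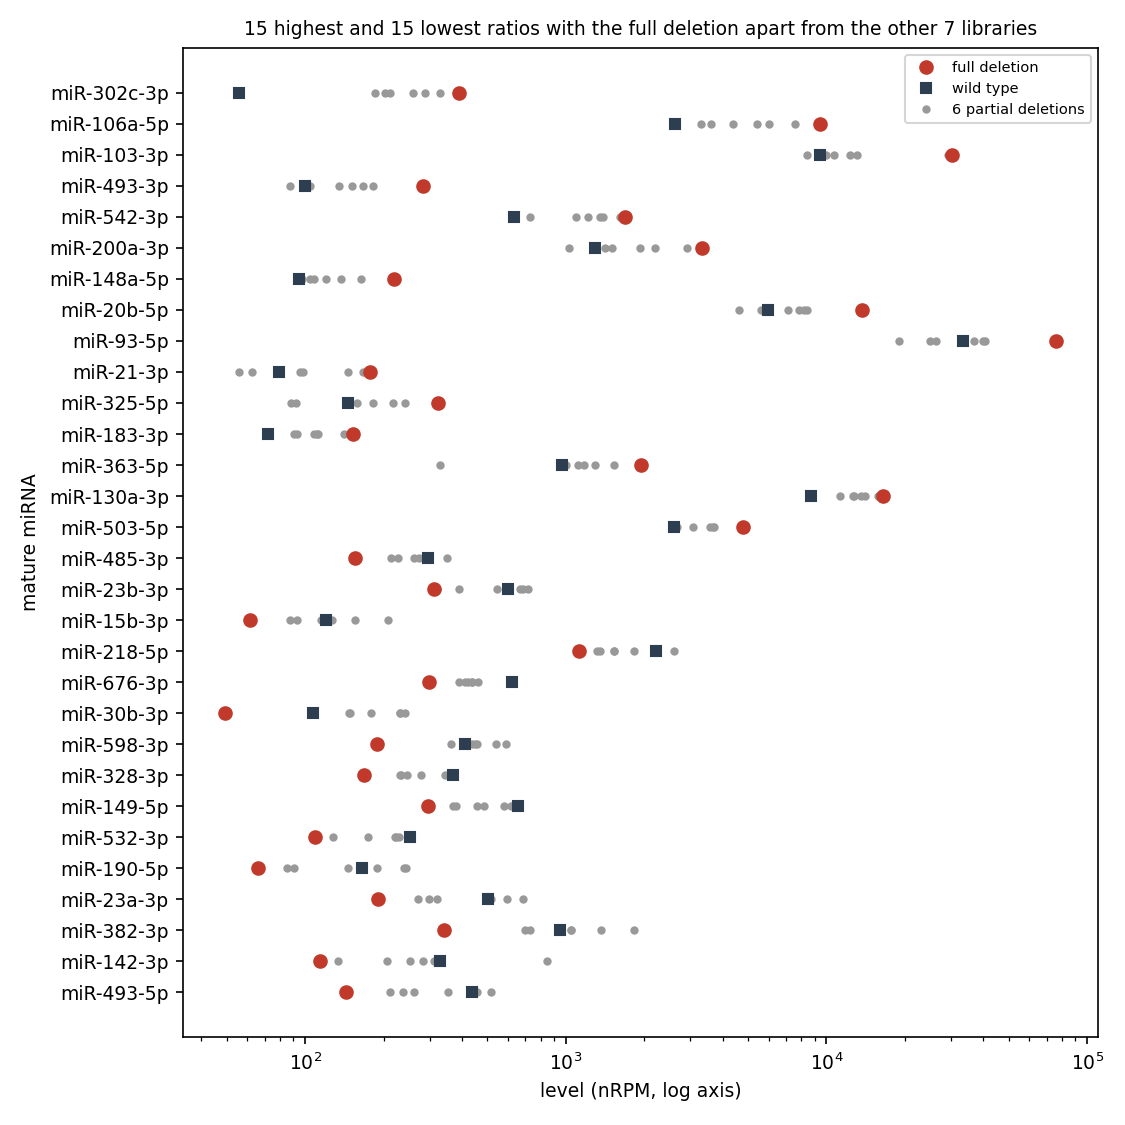
nRPM on a log axis of the miRNAs furthest from wild type for which the full deletion lay outside the range of the other 7 libraries, with the full deletion and wild type marked and the 6 partial deletions as the spread. For miR-93-5p (76216 nRPM in the full deletion) the gap to the nearest other library is wide, and for miR-103-3p (30406 nRPM) the nearest partial deletion (29277 nRPM) is hidden behind the marker.

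The named miRNAs were the 15 highest and 15 lowest ratios for which the full deletion lay outside the range of the other 7 libraries. The highest was miR-302c-3p, of a family that marks pluripotent cells, shown with relatives whose ratios were smaller.
miR-302c-3p: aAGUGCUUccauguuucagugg
miR-302b-3p: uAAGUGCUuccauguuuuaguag
miR-302d-3p: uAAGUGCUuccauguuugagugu
miR-302c-3p was at 388 nRPM in the full deletion and 55.8 nRPM in wild type, 6.96-fold higher (6.24 to 7.78; limma log2 2.78 ± 0.52 SE, adjusted p = 0.188). In the partial deletions it lay between 184.9 and 328.8 nRPM (median 235), so wild type was far below all 7 other libraries and the full deletion was nearer to the next one. miR-302b-3p lay at 3366 nRPM in the full deletion and 2406 nRPM in wild type, and miR-302d-3p at 1377 nRPM in the full deletion and 1815 nRPM in wild type. Both lay within the range of the partial deletions in the full deletion. A further relative, miR-302a-3p, was at 1420 nRPM in the full deletion and 815 nRPM in wild type, 1.74-fold higher (874 to 1501 in the partial deletions). Wild type was the lowest of the 8 libraries for miR-302a-3p, as for miR-302c-3p, and the full deletion was within the range. Its other arm, miR-302a-5p, lay at 1019 nRPM in the full deletion and 1465 nRPM in wild type.

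Others among the 15 highest were spread over several families. miR-542-3p, of an X-linked group of miRNAs with miR-322, was at 1686 nRPM in the full deletion and 634 nRPM in wild type (728 to 1614 in the partial deletions). miR-503-5p, of the same group, lay at 4785 nRPM in the full deletion and 2603 nRPM in wild type (2614 to 3718), so wild type was the lowest library for both and the full deletion the highest. miR-200a-3p, a keeper of the epithelial state, was at 3316 nRPM in the full deletion and 1295 nRPM in wild type (1028 to 2921 in the partial deletions). miR-130a-3p lay at 16458 nRPM in the full deletion and 8741 nRPM in wild type (11220 to 15752), and miR-301a-3p of the same family at 3755 nRPM in the full deletion and 2703 nRPM in wild type. For miR-200a-3p and miR-130a-3p the full deletion was thus only slightly above the highest partial deletion. miR-148a-5p, miR-21-3p, miR-183-3p and miR-363-5p were between 2.01-fold and 2.30-fold higher in the full deletion. The limma adjusted p of the 15 lay between 0.188 and 0.842.

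Among the 15 lowest, miR-532-3p was at 109 nRPM in the full deletion and 252 nRPM in wild type, and miR-149-5p at 294.9 nRPM in the full deletion and 657 nRPM in wild type. miR-218-5p, which marks motor neurons and is made from introns of the Slit genes, lay at 1122 nRPM in the full deletion and 2208 nRPM in wild type (1316 to 2608 in the partial deletions). miR-328-3p, miR-676-3p, miR-15b-3p, miR-23b-3p and miR-485-3p made up the rest, between 0.456-fold and 0.528-fold. Their limma adjusted p, with those of the 7 lower ones named above, lay between 0.761 and 0.780.

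In other cases wild type lay outside the range of the other 7 libraries and the full deletion within it. miR-7a-5p, a miRNA of neuroendocrine cells, was at 3421 nRPM in the full deletion and 868 nRPM in wild type, against 1524 to 5013 nRPM in the partial deletions. miR-675-5p, made from the imprinted H19 transcript, lay at 113 nRPM in the full deletion and 37.6 nRPM in wild type (73.2 to 132). miR-24-3p was at 1461 nRPM in the full deletion and 637 nRPM in wild type, and miR-3074-5p, which lies on the opposite strand of a miR-24 hairpin, had nearly the same values. Their reads were 13922 and 13897 in the full deletion and 4068 and 4063 in wild type. The pair is therefore not counted as separate evidence, though both are among the miRNAs at least 2-fold higher. miR-298-5p, of the imprinted Gnas locus, lay at 628 nRPM in the full deletion and 282 nRPM in wild type (301.9 to 661). In each of these wild type was the low library.

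miR-450a-5p had the lowest ratio of this kind, with 247 nRPM in the full deletion and 1724 nRPM in wild type (0.143-fold). The partial deletions held 140.97 to 878 nRPM of it, so the full deletion was within their range and wild type above it. miR-429-3p, of the miR-200 family, lay at 479 nRPM in the full deletion and 1566 nRPM in wild type (439 to 1537). miR-361-3p was at 111 nRPM in the full deletion and 327 nRPM in wild type (70.4 to 202), and miR-669c-5p and miR-295-3p were likewise highest in wild type.

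The 5p and 3p arms of a hairpin were about as often on opposite sides of wild type as on the same side. Of 74 hairpins with both arms averaging 100 nRPM or more, 35 had both arms on the same side of wild type, and the Pearson correlation of the arms' log2 ratios was -0.11 across these hairpins. Among the 15 pairs of partial deletions, 36 to 50 of the 74 had both arms on the same side, and the correlation lay between -0.23 and 0.50 (median 0.11). The points share 2 libraries and their depth, and hairpins are not independent replicates. Some also repeat each other's values with the arms swapped, such as miR-299 with miR-299b and miR-486 with miR-3107. The 74 therefore hold some reads more than once. Of 20 hairpins with an arm at least 2-fold from wild type, 11 had arms of opposite sign. Only miR-532 had both arms 2-fold in the same direction, with 1043 nRPM in the full deletion and 2328 nRPM in wild type on its 5p arm.

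**Figure D5:**
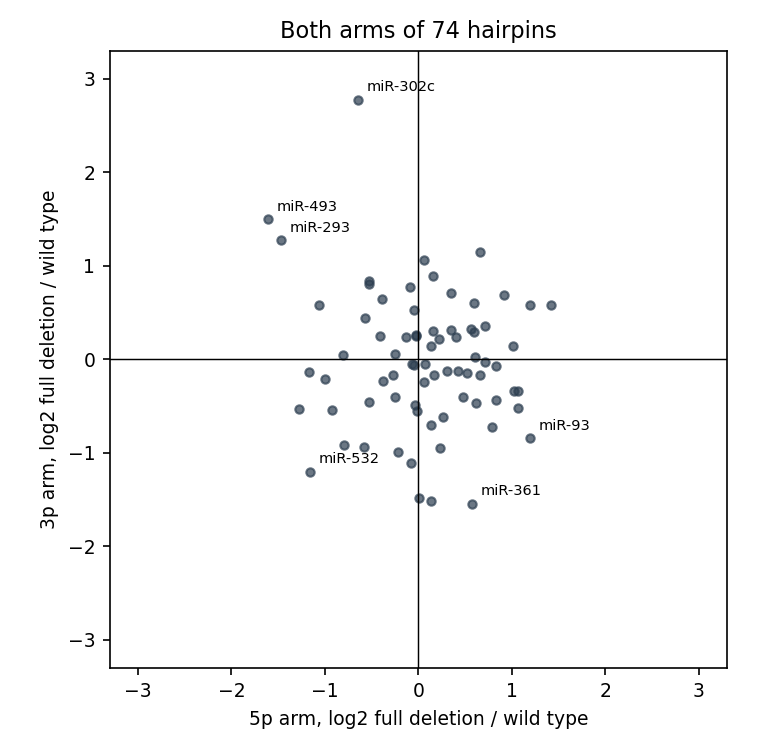
log2 ratio of the full deletion over wild type of the 3p arm against that of the 5p arm, for the 74 hairpins whose arms both average 100 nRPM or more; lines mark a log2 ratio of 0, where both libraries are level. The points form no diagonal (Pearson r = -0.11), and miR-302c and miR-493 lie furthest into the corner of a lower 5p arm and a higher 3p arm.

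The arms of miR-302c and miR-493 differed most, and their sequences show that the arms carry different seeds.
miR-302c-5p: gCUUUAACaugggguuaccugc
miR-493-5p: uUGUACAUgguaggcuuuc
miR-493-3p: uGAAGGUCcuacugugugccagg
miR-493-5p lay at 143.4 nRPM in the full deletion and 437 nRPM in wild type (212 to 517 in the partial deletions). miR-493-3p, from the same hairpin of the Dlk1-Dio3 region, was at 284 nRPM in the full deletion and 99.8 nRPM in wild type (87.6 to 182.1). The full deletion was thus the lowest library on one arm and the highest on the other. miR-302c-5p lay at 94.6 nRPM in the full deletion and 148 nRPM in wild type, while its 3p arm was higher in the full deletion as given above.

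miR-293 and miR-361 also had arms on opposite sides. miR-293-5p was at 219.2 nRPM in the full deletion and 608 nRPM in wild type, and miR-293-3p at 879 nRPM in the full deletion and 363.4 nRPM in wild type. miR-361-5p lay at 1578 nRPM in the full deletion and 1061 nRPM in wild type, opposite to miR-361-3p. miR-93 was the fifth of the most divergent hairpins.

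Lists of miRNAs that mark tissues or share a genomic cluster were read against all 537 miRNAs averaging 10 nRPM or more. Of those, 47 (8.75%) were at least 2-fold higher in the full deletion, 51 (9.5%) at least 2-fold lower, 281 (52.3%) above wild type, 95 (17.7%) highest of 8 libraries in the full deletion and 79 (14.7%) lowest. limma called 0 members of every list outside the cluster. Of 10 measured arms of the miR-106a cluster, 9 were above wild type and 3 were 2-fold higher, with a median log2 ratio of 0.56. With totals outside the cluster the median was 0.31. The count of 9 also depends on the scaling, since the log2 ratio of miR-363-3p turned from 0.14 to -0.11 there. Of 5 measured arms of the miR-106b cluster, 2 were 2-fold higher and the median was -0.34.

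miRNAs of pluripotent cells differed by family. Of 9 members of the list of miR-302 and miR-367, 2 were 2-fold higher and 0 lower, with a median log2 ratio of -0.17 that changed sign to 0.05 with plain read totals. Of 11 members of the miR-290 to miR-295 cluster, 1 was 2-fold higher and 5 lower, with a median of -0.78. miR-292-5p, the most abundant of them, was at 555 nRPM in the full deletion and 1161 nRPM in wild type, and at 437 to 942 nRPM in the partial deletions, so wild type was the library that lay apart.

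let-7, which accumulates as cells differentiate, lay mostly below wild type. Of its 9 members 1 was above wild type, 1 was 2-fold lower and 5 were lowest in the full deletion, with a median of -0.35. let-7f-5p lay at 821 nRPM in the full deletion and 847 nRPM in wild type (886 to 1298 in the partial deletions), and let-7a-5p at 527 nRPM in the full deletion and 843 nRPM in wild type (721 to 1149). For let-7f-5p both libraries therefore lay under all partial deletions. let-7 members differ by few bases, so reads may be shared among them.

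Tissue markers gave a mixed picture. miR-200 family members, which mark epithelium, summed to 12658 nRPM in the full deletion and 10075 nRPM in wild type, and to 7873 to 10476 nRPM in the partial deletions, so the full deletion was the highest of 8. Of 8 members, 4 were highest there, 2 were 2-fold higher and 1 was lower, with a median of 0.24 that turned to -0.01 with totals outside the cluster. miR-141-3p lay at 3336 nRPM in the full deletion and 2551 nRPM in wild type, and miR-200c-3p at 2369.8 nRPM in the full deletion and 2190.4 nRPM in wild type. The endothelial miR-126-3p was at 12181 nRPM in the full deletion and 8047 nRPM in wild type (6053 to 14902), and miR-126-5p at 4029 nRPM in the full deletion and 2674 nRPM in wild type. The mesenchymal list, which includes miR-143, miR-145 and miR-199, summed to 31041 nRPM in the full deletion and 38563 nRPM in wild type (33694 to 47003), and was lowest in the full deletion. Of its 12 members, 1 was 2-fold higher and 2 were lower, and miR-143-3p lay at 9289 nRPM in the full deletion and 14372 nRPM in wild type. miR-140-3p, of cartilage, was on the other side, at 10133 nRPM in the full deletion and 6782 nRPM in wild type (5282 to 7731).

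The labels say that the heart was dissected off, and its markers were low-level miRNAs here. miR-208a, miR-208b and miR-499, which are made from myosin genes, summed to 86.3 nRPM in the full deletion and 47.8 nRPM in wild type (57.0 to 264 in the partial deletions), with 4 of 6 above wild type and miR-499-3p without a read in either library. Of the 3 that averaged 10 nRPM or more, 2 were at least 2-fold higher in the full deletion. miR-208a-3p lay at 32.4 nRPM in the full deletion and 6.27 nRPM in wild type (24.7 to 176 in the partial deletions), and miR-499-5p at 22.8 nRPM in the full deletion and 10.3 nRPM in wild type (18.6 to 60.3). Wild type lay below every partial deletion for both and for the sum, so it was the library that stood apart, and the full deletion was within their range. Of all 9 measured muscle and heart miRNAs, 3 were 2-fold higher and 0 lower. The third was miR-133b-3p, at 15.7 nRPM in the full deletion and 5.64 nRPM in wild type, which was again the lowest library (8.10 to 28.7 in the partial deletions). miR-1a-3p, of heart and skeletal muscle, was at 2862 nRPM in the full deletion and 2485 nRPM in wild type (1531 to 5005), and miR-1b-5p had identical values.

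Neural markers summed to 4522 nRPM in the full deletion and 3260 nRPM in wild type, and erythroid ones to 2811 nRPM in the full deletion and 2878 nRPM in wild type. miR-9-5p, of neural progenitors, lay at 2821 nRPM in the full deletion and 1806 nRPM in wild type (620.1 to 3686), and miR-135b-5p at 827 nRPM in the full deletion and 862 nRPM in wild type. miR-486-3p, of red cells, was at 1192 nRPM in the full deletion and 1246 nRPM in wild type, and miR-3107-5p, the opposite strand of its hairpin, had the same values in both. Hox-cluster miRNAs, which follow the body axis, had 0 of 8 members 2-fold from wild type, and their most abundant member miR-10b-5p lay at 39438 nRPM in the full deletion and 35294 nRPM in wild type. miR-10a-5p was at 21560.0 nRPM in the full deletion and 28280.3 nRPM in wild type.

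Among families of broad function, the miR-30 list summed to 66479 nRPM in the full deletion and 49836 nRPM in wild type (34945 to 52040), the highest of 8, with 0 of 11 members 2-fold higher and 2 lower. miR-30e-5p lay at 24804 nRPM in the full deletion and 19453 nRPM in wild type, and miR-30a-5p at 17685 nRPM in the full deletion and 11619 nRPM in wild type, so each of these abundant members was above wild type by less than 2-fold. Of 12 members of the X-linked group of miR-322, miR-503, miR-450 and miR-542, 2 were 2-fold higher and 1 was lower, and miR-322-5p was at 1632 nRPM in the full deletion and 967 nRPM in wild type. The miR-15/16 list, whose members restrain the cell cycle, had 0 of 9 2-fold higher and 1 lower, and miR-16-5p lay at 5311 nRPM in the full deletion and 3703 nRPM in wild type (4008 to 5353). Wild type was thus the lowest of 8 libraries for miR-16-5p. miR-15b-5p was at 2280.02 nRPM in the full deletion and 1936 nRPM in wild type.

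The imprinted Dlk1-Dio3 region gave the longest list, and its sum in nRPM was the highest of 8 in the full deletion, at 189803 nRPM against 173669 nRPM in wild type (146913 to 171226 in the partial deletions). The sum was 1.09-fold that of wild type, a difference small enough that its sign depends on the scaling. Of its 100 members, 7 were 2-fold higher and 5 lower, and the full deletion was the highest library for 23 and the lowest for 10. Its median log2 ratio was 0.13, which changed sign to -0.11 with totals outside the cluster. miR-127-3p, its most abundant member, was at 28299 nRPM in the full deletion and 22524 nRPM in wild type, and miR-541-5p at 23655 nRPM in the full deletion and 20191 nRPM in wild type. The placental and embryonic miRNAs of the Sfmbt2 region had 2 of 19 members 2-fold higher and 6 lower, with a median of -0.11 that changed sign to 0.11 with plain read totals. miR-669c-5p lay at 252 nRPM in the full deletion and 840.4 nRPM in wild type, and miR-467c-5p at 137 nRPM in the full deletion and 88.3 nRPM in wild type. Its members are near-copies of one another, and 19 miRNAs averaging 10 nRPM or more had the values of another miRNA in all libraries, so these counts hold some reads more than once. Pairs with nearly equal values, such as miR-24-3p with miR-3074-5p, are not among the 19.

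For the remaining lists the counts of members 2-fold higher and 2-fold lower were as follows. They were 1 and 1 of 6 for the sensory miR-183 cluster, 1 and 0 of 10 for neural miRNAs and 0 and 1 of 9 for erythroid and blood. They were 0 and 1 of 4 for miR-34, a target of p53, with miR-449, 0 and 1 of 9 for miR-181 and 1 and 1 of 9 for the list of miR-23, miR-27 and miR-24. They were 0 and 0 of 8 for miR-130 and miR-301, and for miR-99 and miR-100 with miR-125, 1 and 0 of 2 for miR-103 with miR-107, and 0 and 0 of 2 for miR-126. The imprinted H19, Igf2 and Gnas loci had 2 and 1 of 8. The higher ones were miR-675-5p and miR-298-5p, described above, and the lower was miR-298-3p, at 35.8 nRPM in the full deletion and 73.6 nRPM in wild type (31.2 to 61.9 in the partial deletions). For all 3 the full deletion was within the range of the partial deletions and wild type was not.

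Abundant members of these lists lay on both sides of wild type. miR-182-5p, of sensory cells, was at 6212 nRPM in the full deletion and 9092 nRPM in wild type, and miR-183-5p of the same hairpin cluster at 6906 nRPM in the full deletion and 6598 nRPM in wild type. miR-34c-5p lay at 1579 nRPM in the full deletion and 1189 nRPM in wild type, and miR-34a-5p at 250.05 nRPM in the full deletion and 184.8 nRPM in wild type. miR-181a-5p was at 7096 nRPM in the full deletion and 4658 nRPM in wild type, and the higher of the 2 entries of miR-181b-5p at 3084 nRPM in the full deletion and 3125 nRPM in wild type. None of these differed by 2-fold.

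miR-27b-3p, made with miR-23b and miR-24, lay at 2852 nRPM in the full deletion and 1594 nRPM in wild type (1432 to 3540.1 in the partial deletions). miR-296-3p, of the Gnas locus, was at 4289 nRPM in the full deletion and 5902 nRPM in wild type, which was the highest library (852 to 4675). miR-483-3p, from an intron of Igf2, lay at 384 nRPM in the full deletion and 453.6 nRPM in wild type (419.9 to 674), and the full deletion was the lowest library. miR-99b-5p was at 5734 nRPM in the full deletion and 6812 nRPM in wild type, and miR-125b-5p at 1426 nRPM in the full deletion and 1794 nRPM in wild type, both within the range of the partial deletions. Every list was chosen with earlier results of these data known.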

How the data were processed

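The deposited table holds 1 normalised signal value per mature miRNA and library. Per the submitters' processing notes the tools were STAR 2.2.0, SAMtools 0.1.19 and featureCounts of Subread 1.4.2, on mm9; how values were normalised was not given in the sources used here. In each column all values (100%) were whole multiples of 1 read, within 0.001 reads, so reads were recovered. Of 977 accessions in 1046 rows, 57 were repeated; where rows of 1 accession were within 10% of each other the higher alone was kept, which left 984. Ratios carry exact conditional (Clopper-Pearson) intervals.

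Because the values are not counts, limma 3.58.1 (R 4.3.3) on log2(nRPM + 1), with a pseudocount of 1, was the main test, with Benjamini-Hochberg adjustment at 0.05. The groups were the full deletion, wild type and the 6 partial deletions. edgeR 4.0.16 and DESeq2 1.42.0 on the recovered reads were alternatives. The fit was tested on simulated data.

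The text names every arm of the 3 clusters, the 15 highest and the 15 lowest ratios with the full deletion outside the range of the other 7 libraries, the 5 highest and 5 lowest with wild type outside it instead, the 2 most abundant members of each of 26 lists and the 5 hairpins with the most divergent arms. Members, lists and tests were chosen with earlier results of these data known.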

Additional observations from a re-analysis of the deposited data

How the results depend on the processing

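No paired analysis was possible because each genotype had 1 library and no replicate numbers. limma called 0 miRNAs outside the cluster in all 3 comparisons under each alternative run (other pseudocounts, filters, scalings and unmerged entries) and 0 to 0 when each partial deletion was left out in turn, and edgeR called 0. DESeq2 called 5 between the full deletion and wild type, 9 between the full deletion and the partial deletions, and 3 between wild type and the partial deletions. The cause was not tested.

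The count of miRNAs at least 2-fold higher in the full deletion (27) was 43 with plain read totals, 14 with totals outside miR-17~92, 47 at a mean of 10 nRPM or more, 12 at 1000 or more, and 10 against the mean of the 6 partial deletions, chosen after seeing the data. The count lower (26) was 14, 43, 51, 6 and 13 in the same order. With plain totals and with totals outside the cluster, the percentage of wild type was 146% and 105% for the miR-17 seed, 78.8% and 56.7% for the miR-18 seed, 9.14% and 6.58% for the miR-19 seed, 19.1% and 13.8% for the miR-92 seed, and 0.0886% and 0.0637% for the deleted arms. With entries of 1 accession summed, the miR-19 seed stood at 9.01%. Of 160 values of 40 named miRNAs under other scalings, 0 changed sign, but this outcome was fixed in advance. The 40 were chosen for large ratios, with log2 of at least 0.878 in size. Other scalings moved log2 ratios by only about 0.25 at most. Depth limits miRNAs near 10 nRPM most, since 1 read was worth 0.105 nRPM in the full deletion and 0.157 nRPM in wild type.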

Other observations

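The library of undetermined reads, which the labels put in no genotype, held 3021218 reads, of which arms of miR-17~92 took 24.6%.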
